A study of Homo sapiens with 12 samples.

Results

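The set described here holds 9 genes of the mesenchymal program, followed by RNA-seq in the human osteosarcoma line HOS with altered levels of the adaptor protein CIN85. They are the transcription factors SNAI1, SNAI2, TWIST1, TWIST2, ZEB1 and ZEB2, the structural markers VIM and FN1, and the ligand TGFB1. The genes were chosen by name, though with earlier results of these data known, and are 9 of the 25141 genes in the count table. All 9 were present and passed the filter on low counts, after which 12542 genes were tested. The 12 libraries form 4 groups of 3. The libraries labelled upCIN85 come from 1 geneticin-resistant pool of HOS cells transfected with pRc/CMV2-Rukl, a plasmid that encodes CIN85 in full length. Mock libraries come from cells given the empty vector. By the paper's methods, geneticin selection followed transfection with either vector. In siCIN85, a mix of siRNAs against CIN85 was used, and siNeg cells received a non-targeting siRNA. The study's methods speak of biological replicates for its experiments in general, but neither they nor the labels say for these libraries whether those of a group came from separate cultures, so P-values measure only the spread between the libraries.

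The SNAIL (SNAI1 and SNAI2, the latter also called SLUG) and ZEB families are zinc finger repressors that bind E-boxes, short DNA elements with the letters CANNTG, and for both families CAGGTG is the preferred core. TWIST1 and TWIST2 are basic helix-loop-helix factors that bind E-boxes as dimers. In epithelial cells these factors silence junction genes such as CDH1 and accompany the gain of vimentin and fibronectin, and transforming growth factor β, the product of TGFB1, is a classical inducer of that change. Osteosarcoma cells are of mesenchymal origin, and many of these factors and markers are commonly expressed in them. The question addressed by the libraries is whether transcripts of these genes differ when CIN85 is raised or silenced. The proteins fibronectin, vimentin, SNAIL with SLUG, and TGFβ were blotted in the study. For HOS and SAOS-2 alike, the paper reports that CIN85 raised the amounts of fibronectin and TGFβ. Those blots were not analysed here, and transcript levels alone do not give the amounts of protein.

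Promoter windows of 300 bases, from 250 before to 50 after an annotated start, were available from RefSeq (GRCh38.p14) for 6 of the 9 genes, TWIST2, ZEB1, ZEB2, VIM, FN1 and TGFB1, with 7 alternative windows for ZEB1. The upstream stretches of ZEB1, FN1 and VIM are shown because ZEB1 and FN1 had the lowest P-values of the 9 genes in the knockdown comparison and VIM is the most abundant of the 9 by counts. Capitals mark 4 motifs: CANNTG, its core CAGGTG (or CACCTG on the other strand), the palindromic cyclic AMP response element TGACGTCA, and the GC box GGGCGG (or CCGCCC on the other strand). Every CAGGTG is also a CANNTG, and GC boxes may overlap one another.
ZEB1 promoter, chr10:31318167-31318416, plus strand: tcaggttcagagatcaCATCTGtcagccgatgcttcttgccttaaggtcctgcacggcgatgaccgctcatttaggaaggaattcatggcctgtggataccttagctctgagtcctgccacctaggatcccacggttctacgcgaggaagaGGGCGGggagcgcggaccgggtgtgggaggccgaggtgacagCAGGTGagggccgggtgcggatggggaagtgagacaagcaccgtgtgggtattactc
FN1 promoter, chr2:215436173-215436318, minus strand: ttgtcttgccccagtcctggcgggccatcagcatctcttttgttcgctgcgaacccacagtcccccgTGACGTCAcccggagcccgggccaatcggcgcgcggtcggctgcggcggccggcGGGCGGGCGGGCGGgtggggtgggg
VIM promoter, chr10:17227991-17228240, plus strand: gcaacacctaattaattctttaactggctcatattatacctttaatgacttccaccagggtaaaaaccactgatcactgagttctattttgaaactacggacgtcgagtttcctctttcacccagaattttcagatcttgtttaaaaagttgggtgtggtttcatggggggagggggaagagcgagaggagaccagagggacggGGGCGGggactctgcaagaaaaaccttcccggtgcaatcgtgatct

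The core CAGGTG occurred in 2 of the 12 windows of these genes, both of ZEB1, with 3 matches in the window chr10:31318966-31319265 and 1 in the window shown. Of all 35116 windows in the table, 20.6% held the core. No CANNTG of any kind was found in the windows of FN1, VIM, TWIST2 and TGFB1, whereas 68.7% of all windows held at least 1. The FN1 window held TGACGTCA, which 1.85% of all windows did. A GC box was found in 9 of the 12 windows and in 45% of all windows. These matches describe letters only, and no binding was measured.

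Total counts per library lay between 3540641 and 6049458, with the siNeg and siCIN85 libraries at the lower end (3540641 to 4174860) and the Mock and upCIN85 libraries at the higher end (5334731 to 6049458). SH3KBP1, the gene for CIN85, had 7.54 ± 3.19 CPM (counts scaled to library size with TMM factors; mean ± SD, n = 3) in siCIN85 and 85.1 ± 2.37 CPM in siNeg, a log2FC of -3.51 (adjusted P = 5.09e-08, edgeR). In the libraries labelled upCIN85 it had 81.3 ± 9.61 CPM and in Mock 77.5 ± 5 CPM, a log2FC of 0.070 with a 95% confidence interval from -0.26 to 0.40, so counts on this gene do not show the overexpression named by the label. Counts do not separate a plasmid transcript from the gene's own. Whether a plasmid transcript is counted on this gene at all was not tested. By western blot, the study measured CIN85 protein in its sublines and describes upCIN85 as overexpressing it, and that blot was not analysed here. Within these counts, every direction given below for upCIN85 versus Mock rests on the labels. HOS is labelled an osteosarcoma line, and the bone matrix genes COL1A1 (337 to 1243 CPM) and SPARC (354 to 779 CPM) were detected in every library, while IBSP, which encodes bone sialoprotein, had at most 1 count in any library.

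The library kit reads transcript 3′ ends, so a transcript gives reads from its end whatever its length, and CPM values were not divided by length. On this scale the means over 12 libraries were 551 CPM for VIM (chr10:17228259-17237593, plus strand, GRCh38, GENCODE release 29), the intermediate filament vimentin, and 514 CPM for FN1 (chr2:215360440-215436172, minus strand), the matrix glycoprotein fibronectin. Among the transcription factors, TWIST2 (chr2:238848032-238910543, plus strand) had 109 CPM, ZEB1 (chr10:31318495-31529814, plus strand) 64.2 CPM and ZEB2 (chr2:144364364-144524583, minus strand) 31.1 CPM. TWIST1 (chr7:19020991-19117672, minus strand) had 22.2 CPM and SNAI2 (chr8:48917604-48921740, minus strand) 16.6 CPM. The lowest means were those of TGFB1 (chr19:41301587-41353911, minus strand) with 8.44 CPM and SNAI1 (chr20:49982999-49988886, plus strand) with 4.75 CPM. The counts behind these means limit the precision unequally: SNAI1 had 7 to 36 counts per library and TGFB1 26 to 56, against 1501 to 3931 for VIM.

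**Figure D1:**
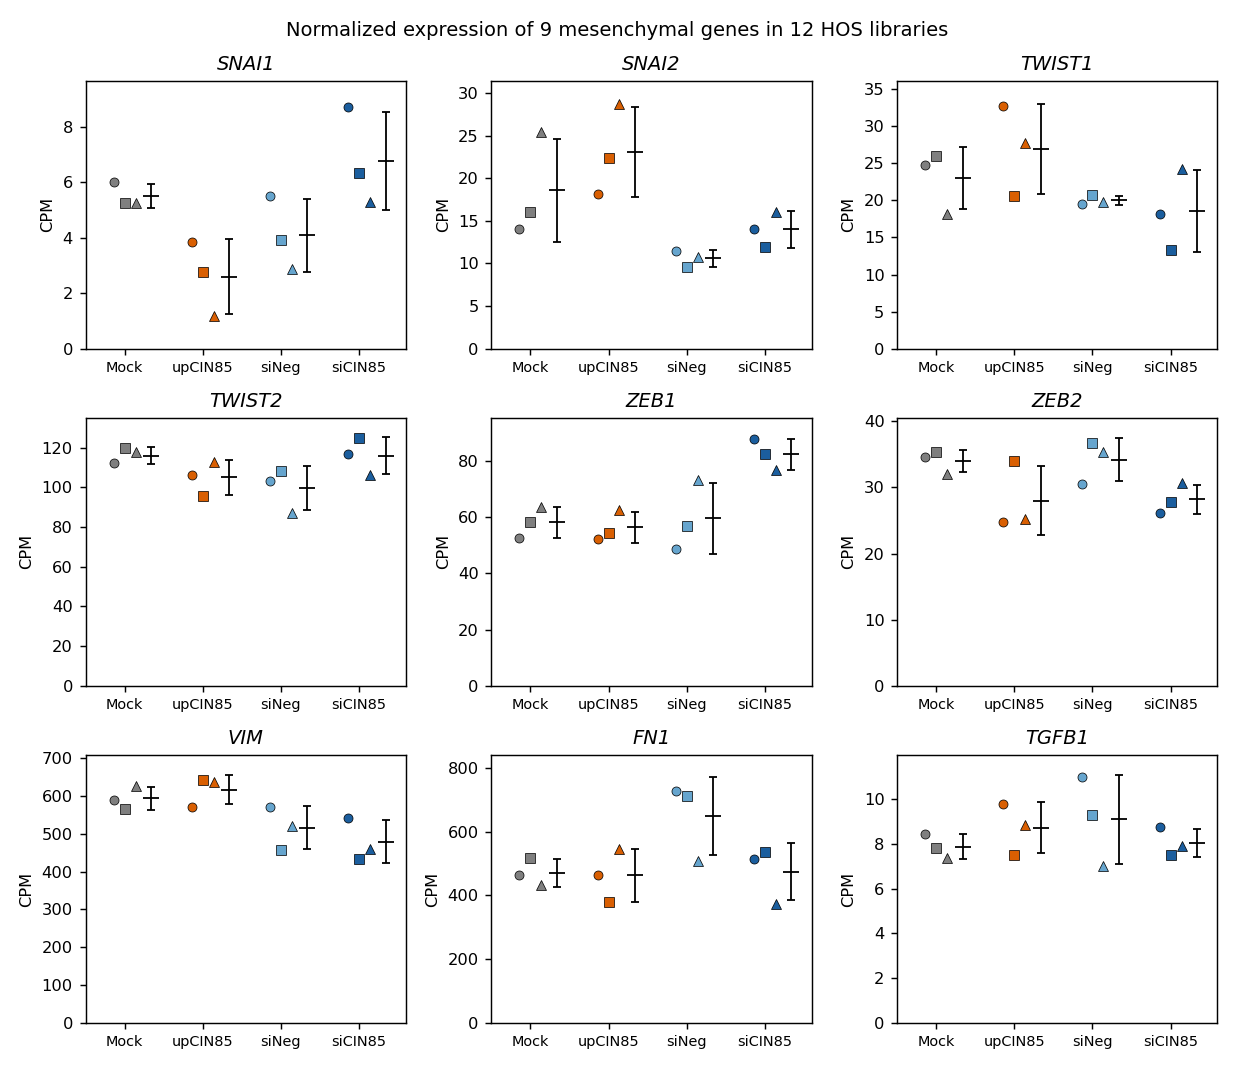
Normalized expression (CPM, linear axes from 0) of the 9 genes in the 12 libraries, with circles, squares and triangles for replicates 1, 2 and 3 and a bar with whiskers for the mean ± SD of each group (n = 3). SNAI1 in upCIN85 (1.19 to 3.85 CPM) lies below Mock (5.26 to 6.02 CPM), and ZEB1 in siCIN85 (76.8 to 87.9 CPM) lies above siNeg (48.7 to 73.4 CPM).

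In upCIN85 versus Mock, none of the 9 genes passed an adjusted P of 0.05 with edgeR's quasi-likelihood test, against 1.23% of all tested genes. At an unadjusted P below 0.05 there was 1 of the 9, SNAI1, against 14.5% of all tested genes, and DESeq2 on all 12 libraries also called 0. When both experiments were blocked by replicate number, 1 was called, SNAI1, against 8.25% of all. Of the log2FC values, 4 were above 0 and 5 below, with a median of -0.023 for the 9 genes and 0.0072 for all tested genes. The median absolute log2FC was 0.15 for the 9 genes and 0.17 for all. The libraries of the groups did not overlap for 1 of the 9 genes, SNAI1, whereas they did not overlap for 20.7% of all tested genes.

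SNAI1, which encodes SNAIL, had 6.02, 5.26 and 5.26 CPM in Mock replicates 1, 2 and 3. In upCIN85 it had 3.85, 2.78 and 1.19 CPM, from 22, 17 and 7 counts. All 3 upCIN85 libraries were below all 3 Mock libraries (exact permutation test, P = 0.1, the smallest possible with 3 against 3). The log2FC was -1.08 (SE 0.35, unadjusted P = 0.00662, adjusted P = 0.136, edgeR), the largest in size among the 9 genes in this comparison. It ranged from -1.46 without upCIN85 replicate 1 to -0.74 without upCIN85 replicate 3, the library with 7 counts, where the adjusted P was 0.442. The upCIN85 library was the lower in each same-numbered pair, with folds of 0.639, 0.528 and 0.226. With a replicate block in both experiments the log2FC was -1.10 with an adjusted P of 0.02, with 1 block over all libraries the adjusted P was 0.0451, and with only the siRNA libraries blocked it was 0.0615. A block for the siRNA libraries alone adds no term for Mock and upCIN85. It alters upCIN85 versus Mock only through the spread estimated over all libraries.

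SNAI2, which encodes SLUG, had 14.1, 16.1 and 25.4 CPM in Mock and 18.2, 22.4 and 28.7 CPM in upCIN85. The groups overlapped, and the log2FC was 0.31 (95% confidence interval -0.13 to 0.76, adjusted P = 0.532). The upCIN85 library was the higher in each same-numbered pair, with folds of 1.29, 1.39 and 1.13, and the adjusted P with a block in both experiments was 0.168. The log2FC was 0.12 without upCIN85 replicate 3 and 0.61 without Mock replicate 3. The paralogs SNAI1 and SNAI2 thus had log2FC values of opposite sign, and neither passed the adjusted threshold. Their summed level was 24.1 ± 5.77 CPM in Mock and 25.7 ± 3.97 CPM in upCIN85 (n = 3 each). SNAI2 made up 70.1 to 82.9% of that sum in Mock and 82.5 to 96.0% in upCIN85, ranges that overlap.

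TWIST1 had 24.8, 26.0 and 18.2 CPM in Mock and 32.7, 20.6 and 27.7 CPM in upCIN85 (log2FC 0.23, adjusted P = 0.656). TWIST2 had 112, 120 and 118 CPM in Mock and 106, 95.8 and 113 CPM in upCIN85 (log2FC -0.15, adjusted P = 0.565). Both TWIST genes overlapped between the groups. ZEB1 had 52.5, 58.4 and 63.7 CPM in Mock and 52.3, 54.4 and 62.6 CPM in upCIN85, nearly the same range, with a log2FC of -0.045 (95% confidence interval -0.34 to 0.25). ZEB2 had 34.6, 35.3 and 32.1 CPM in Mock and 24.8, 34.0 and 25.2 CPM in upCIN85 (log2FC -0.28, adjusted P = 0.392). For ZEB2, replicate 2 of upCIN85 lay within the Mock range and the other two below it.

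The markers VIM and FN1 had intervals that lay on both sides of 0. VIM had 589, 566 and 627 CPM in Mock and 572, 642 and 636 CPM in upCIN85, a log2FC of 0.054 with a 95% confidence interval from -0.17 to 0.28. FN1 had 463, 516 and 432 CPM in Mock and 465, 378 and 546 CPM in upCIN85, a log2FC of -0.023 with an interval from -0.36 to 0.31. TGFB1 had 8.47, 7.81 and 7.37 CPM in Mock and 9.79, 7.52 and 8.84 CPM in upCIN85 (log2FC 0.14, 95% confidence interval -0.29 to 0.58). The counts assigned to TGFB1 need care, since its annotation overlaps that of HNRNPUL1, CCDC97 and TMEM91 on the other strand. HNRNPUL1 had 10418 counts over all libraries and TGFB1 488. The library kit is stranded, but the strand setting used for counting is not given in the sources used here.

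In siCIN85 versus siNeg, 0 of the 9 genes passed an adjusted P of 0.05 in the fit without a replicate block, against 1.04% of all tested genes, and DESeq2 on all 12 libraries also called 0. At an unadjusted P below 0.05 there were 2, ZEB1 and FN1, against 15.7% of all. Libraries of siNeg and siCIN85 with the same number shared deviations from their group means across genes, so the comparison was also fitted with the replicate number as a block. With this block for the siRNA libraries only, 1 of the 9 genes was called, FN1, against 3.42% of all tested genes. With a block in both experiments, 2 were called, FN1 and ZEB1, against 7.72% of all. The median log2FC was -0.10 for the 9 genes and -0.0052 for all, and the median absolute log2FC was 0.28 for the 9 genes and 0.19 for all.

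FN1 had 726, 713 and 508 CPM in siNeg and 514, 536 and 372 CPM in siCIN85. The groups overlapped, because siNeg replicate 3 lay below siCIN85 replicates 1 and 2, but within each replicate number siCIN85 was the lower. The fold was 0.707, 0.751 and 0.732 for replicates 1, 2 and 3. The log2FC was -0.45 (SE 0.16, adjusted P = 0.175, edgeR), and with the siRNA libraries blocked it was -0.45 with an adjusted P of 0.0348. With each library left out in turn and no block, it lay between -0.61 and -0.32. The siCIN85 mean of 474 ± 89.2 CPM was close to the Mock mean of 470 ± 42.7 CPM, whereas siNeg had 649 ± 123 CPM (n = 3 each).

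ZEB1 had 48.7, 56.9 and 73.4 CPM in siNeg and 87.9, 82.4 and 76.8 CPM in siCIN85. All 3 siCIN85 libraries were above all 3 siNeg libraries (exact permutation test, P = 0.1, the smallest possible), although siNeg replicate 3 came close to siCIN85 replicate 3. By replicate number the fold was 1.80, 1.45 and 1.05. The log2FC was 0.47 (SE 0.14, unadjusted P = 0.00492, adjusted P = 0.127, edgeR). The adjusted P was 0.072 with the siRNA libraries blocked and 0.0233 with a block in both experiments. Without siNeg replicate 3 the log2FC was 0.63 with an adjusted P of 0.0366, and without siNeg replicate 1 it was 0.34 with 0.373. The antisense gene ZEB1-AS1, which overlaps ZEB1, had 188 counts in all, 5.17% of the ZEB1 total.

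**Figure D2:**
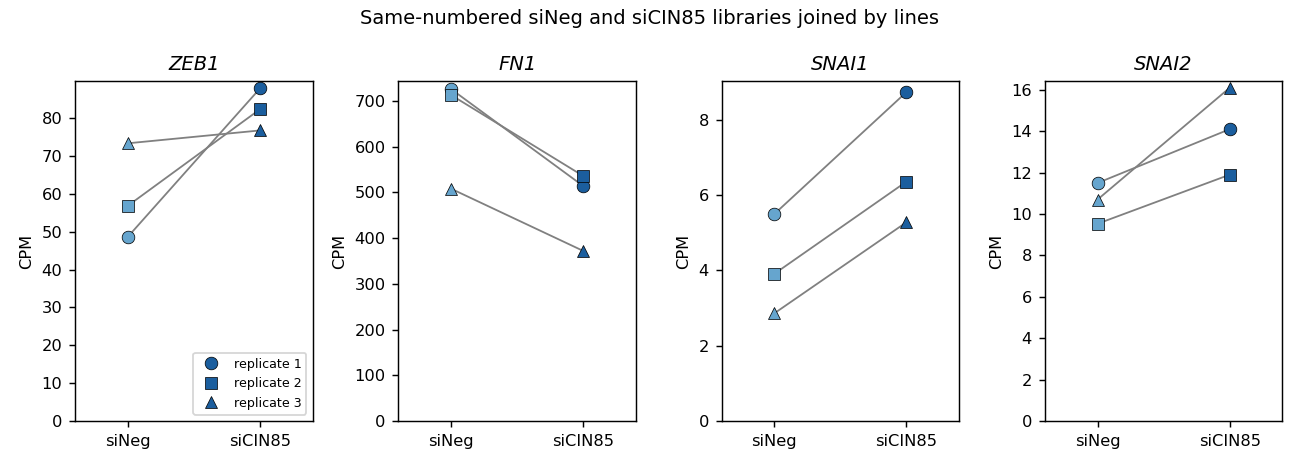
Normalized expression (CPM, linear axes from 0) of ZEB1, FN1, SNAI1 and SNAI2 in the siNeg and siCIN85 libraries, with lines joining libraries of the same replicate number. For FN1 the siCIN85 library is the lower in every pair, by similar folds (0.707 to 0.751), while for ZEB1 (folds of 1.05 to 1.80), SNAI1 and SNAI2 it is the higher in all 3 pairs.

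ZEB2 had 30.5, 36.7 and 35.4 CPM in siNeg and 26.2, 27.8 and 30.6 CPM in siCIN85 (log2FC -0.28, adjusted P = 0.387), with only siCIN85 replicate 3 just inside the siNeg range. The ratio of ZEB1 to ZEB2 was 1.60, 1.55 and 2.07 in siNeg and 3.35, 2.97 and 2.51 in siCIN85, and these ranges did not overlap. The ratio was 1.69-fold higher in siCIN85 (log2 difference 0.76, SE 0.18, exact permutation test, P = 0.1, 1 of 6 ratios tested over the 3 paralog pairs and both comparisons). The other 5 ratios overlapped between their groups. In upCIN85 versus Mock the ZEB1 to ZEB2 ratio was 1.19-fold higher, with overlapping libraries (exact permutation test, P = 0.3).

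SNAI1 had 5.50, 3.91 and 2.86 CPM in siNeg and 8.74, 6.36 and 5.28 CPM in siCIN85. The groups overlapped, but the siCIN85 library was the higher in each same-numbered pair, with folds of 1.59, 1.63 and 1.84. The log2FC was 0.73 (95% confidence interval -0.013 to 1.48, adjusted P = 0.327), and the adjusted P with the siRNA libraries blocked was 0.230. SNAI2 had 11.5, 9.53 and 10.7 CPM in siNeg and 14.1, 11.9 and 16.1 CPM in siCIN85. All siCIN85 libraries were above all siNeg libraries, yet the log2FC of 0.41 (SE 0.25) had an adjusted P of 0.449. ZEB1 and SNAI2 were the 2 of the 9 genes whose groups did not overlap in this comparison, against 20.2% of all tested genes.

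TWIST1 had 19.5, 20.8 and 19.8 CPM in siNeg, the tightest group of this gene, and 18.2, 13.3 and 24.3 CPM in siCIN85 (log2FC -0.10, adjusted P = 0.866). TWIST2 had 103, 108 and 87.2 CPM in siNeg and 117, 125 and 106 CPM in siCIN85 (log2FC 0.22, adjusted P = 0.341), with siCIN85 the higher in each same-numbered pair and overlapping groups. VIM had 571, 458 and 520 CPM in siNeg and 543, 434 and 459 CPM in siCIN85, a log2FC of -0.11 with a 95% confidence interval from -0.33 to 0.12. Its overlap was wide, and within each replicate number the fold was 0.951, 0.947 and 0.882. TGFB1 had 11.0, 9.29 and 7.03 CPM in siNeg and 8.74, 7.52 and 7.92 CPM in siCIN85 (log2FC -0.17, 95% confidence interval -0.64 to 0.30).

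**Figure D3:**
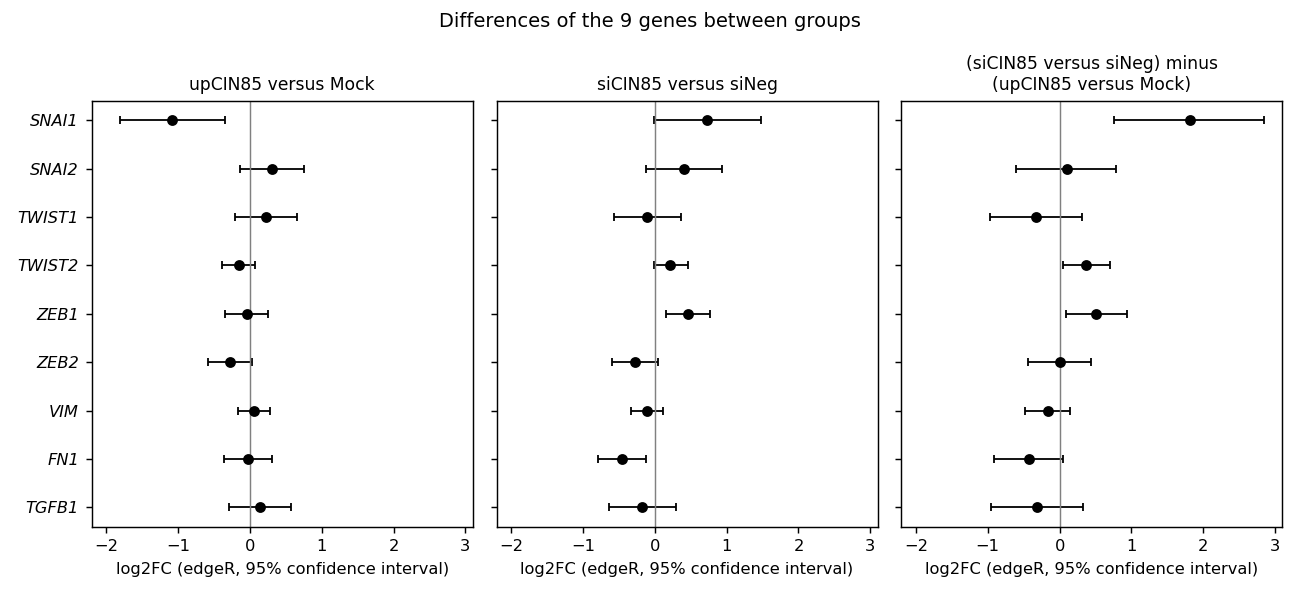
Log2FC from edgeR with 95% confidence intervals for the 9 genes in upCIN85 versus Mock, in siCIN85 versus siNeg, and for the difference between these comparisons. In the first panel only the SNAI1 interval (-1.81 to -0.34) leaves out 0, in the second only those of ZEB1 (0.16 to 0.77) and FN1 (-0.79 to -0.12), and none of these has an adjusted P below 0.05 in this fit without a replicate block.

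Whether the genes responded differently to knockdown and to overexpression was tested as the difference between both log2FC values. SNAI1 had a negative log2FC in the libraries labelled upCIN85 and a positive one in siCIN85, and its difference was 1.81 (SE 0.50, 95% confidence interval 0.76 to 2.85). The adjusted P was 0.0843 with edgeR and 0.0738 with DESeq2 on all 12 libraries. No gene of the 9 was called in this test, against 0.973% of all tested genes, while 3 had an unadjusted P below 0.05 (SNAI1, ZEB1 and TWIST2), against 14.5% of all. With the siRNA libraries blocked, SNAI1 was called (adjusted P = 0.0407), 1 of the 9 genes, against 2.93% of all. For ZEB1 the difference was 0.51 (adjusted P = 0.250), for TWIST2 0.37 (adjusted P = 0.275) and for FN1 -0.43 (adjusted P = 0.398). ZEB2 had the same log2FC of -0.28 in both comparisons, and the difference of 0.00095 had an interval from -0.44 to 0.44.

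The controls of the 2 experiments were also set side by side, since vector selection and siRNA transfection cannot be told apart from any other difference between the experiments. In siNeg versus Mock, 0 of the 9 genes were called, against 0.526% of all tested genes, with 2 at an unadjusted P below 0.05 (SNAI2 and FN1), against 12.4% of all, and 0 called by DESeq2. SNAI2 was 10.6 ± 0.987 CPM in siNeg and 18.6 ± 6.04 CPM in Mock, without overlap (log2FC -0.81, adjusted P = 0.152), and TWIST2 did not overlap either (log2FC -0.23). These were 2 of the 9 genes, against 19.4% of all. FN1 had a log2FC of 0.46 (adjusted P = 0.226). The knockdown comparison shares the siNeg libraries with this one, so the FN1 values in both rest on the same 3 libraries.

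In the order of group means, neighbouring groups overlapped for SNAI1 (siCIN85, Mock, siNeg, upCIN85), TWIST1 (upCIN85, Mock, siNeg, siCIN85), VIM (upCIN85, Mock, siNeg, siCIN85) and FN1 (siNeg, siCIN85, Mock, upCIN85). They also overlapped at each step for TWIST2 (Mock, siCIN85, upCIN85, siNeg) and TGFB1 (siNeg, upCIN85, siCIN85, Mock). A step without overlap was found in 3 of the 9 genes, against 28.5% of all tested genes with at least 1 such step. For SNAI2 (upCIN85, Mock, siCIN85, siNeg) it lay between siCIN85 and siNeg, for ZEB1 (siCIN85, siNeg, Mock, upCIN85) between siCIN85 and siNeg, and for ZEB2 (siNeg, Mock, siCIN85, upCIN85) between Mock and siCIN85.

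The genes that work with these factors were read from lists chosen by function. Some lists share genes, so their counts are not separate observations. TAGLN, ACTA2 and LOX are in the mesenchymal markers and the TGF-β targets, and SMAD7, SKIL and LTBP2 in both TGF-β lists. COL1A1 and SPARC are also shared. For the counts of list genes at an unadjusted P below 0.05, the shares over all tested genes were 14.5% in upCIN85 versus Mock and 15.7% in siCIN85 versus siNeg. For list genes called in the fit without a block, the shares were 1.23% and 1.04%. The share of all genes called by DESeq2 is not given here, so its counts have no background beside them. Of the dimer partners of TWIST and their ID inhibitors, 7 of 7 were tested and 0 were called in upCIN85 versus Mock (3 at an unadjusted P below 0.05, 0 with DESeq2), with 2 values above 0, 5 below and a median log2FC of -0.64 against 0.0072 for all genes. The low values were those of the ID genes, whose proteins hold basic helix-loop-helix partners in inactive dimers. ID3 had 312 ± 92.9 CPM in Mock and 108 ± 71.1 CPM in upCIN85, a log2FC of -1.53 (SE 0.38) with an adjusted P of 0.0562. With the siRNA libraries blocked the adjusted P of ID3 was 0.0109, and with a block in both experiments 0.00011, and under each of these fits 3 of the 7 were called. In siCIN85 versus siNeg, the list had a median of -0.088 and 0 called (0 at an unadjusted P below 0.05, 0 with DESeq2). Of 18 corepressors and turnover factors of SNAIL and ZEB, 17 were tested and 0 called in either comparison (1 each at an unadjusted P below 0.05). DESeq2 called 1 in upCIN85 versus Mock and 0 in the knockdown. CTBP1, a corepressor recruited by ZEB proteins, had 99.4 ± 8.18 CPM in Mock and 132 ± 7.64 CPM in upCIN85 (log2FC 0.41, adjusted P = 0.0542, and 0.0247 with the siRNA libraries blocked).

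Among 9 tested genes of other mesenchymal transcription factors, 1 was called in upCIN85 versus Mock, against 1.23% of all tested genes. There 4 had an unadjusted P below 0.05, and DESeq2 called 1. None was called in the knockdown (1 at an unadjusted P below 0.05, 0 with DESeq2). FOXC2, a forkhead factor, was lower in upCIN85, with 49.8 ± 3.48 CPM against 78.0 ± 9.90 CPM in Mock (log2FC -0.65, SE 0.14, adjusted P = 0.0328). HMGA2, an architectural chromatin protein, had the largest log2FC of the list in the knockdown, 1.77 (SE 0.46, adjusted P = 0.0720), with a wide spread of 65.9 ± 34.5 CPM in siCIN85 and 19.5 ± 18.9 CPM in siNeg. With the siRNA libraries blocked, HMGA2 had an adjusted P of 0.000637.

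Of 17 tested genes of other mesenchymal markers, 0 were called in either comparison, although 11 in upCIN85 versus Mock and 8 in siCIN85 versus siNeg had an unadjusted P below 0.05, against 14.5% and 15.7% of all tested genes. DESeq2 called 2 and 1. With the siRNA libraries blocked, 6 of the 17 were called in upCIN85 versus Mock and 2 in the knockdown, against 4.35% and 3.42% of all. With a block in both experiments these counts were 10 and 7, against 8.25% and 7.72%. The values pointed both ways in upCIN85, with 6 above 0 and 11 below and a median of -0.20, and in siCIN85 5 were above 0 and 12 below, with a median of -0.40. LUM, a matrix proteoglycan, had the largest difference in this list in each comparison among genes of at least 10 CPM: 29.8 ± 20.3 CPM in upCIN85 against 11.9 ± 6.14 CPM in Mock (log2FC 1.33, adjusted P = 0.181), and 4.72 ± 1.07 CPM in siCIN85 against 13.2 ± 4.34 CPM in siNeg (log2FC -1.47, adjusted P = 0.261). In the same order, the adjusted P values of LUM were 0.116 and 0.22 with the siRNA libraries blocked, and 0.43 and 0.288 with DESeq2. With a block in both experiments they were 0.000795 and 0.00403.

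Of 30 epithelial genes, 27 were in the table and 14 were tested, and 0 were called in either comparison (5 and 1 at an unadjusted P below 0.05, 0 and 0 with DESeq2). The median log2FC was 0.084 in upCIN85 and -0.13 in siCIN85. The values pointed both ways, with 8 above 0 and 6 below in upCIN85 versus Mock, and 4 above and 10 below in the knockdown. CDH1, the E-cadherin gene that SNAIL and ZEB proteins repress in epithelia, was measured at 12.8 to 34.2 CPM over the libraries, and KRT18 at 200 to 309 CPM. The log2FC of CDH1 was 0.71 in upCIN85 versus Mock and -0.029 in the knockdown. For KRT18 the values were -0.31 and -0.087. The other 13 genes of the list in the table were too low to be tested. Among these were the splicing regulators ESRP1 and ESRP2, with means of 0.977 and 1.31 CPM, and CLDN7 (1.25 CPM), CRB3 (0.209 CPM), ST14 (0.267 CPM) and KRT19 (0.118 CPM). The summed level of the list was 484 to 576 CPM in Mock, 525 to 576 CPM in upCIN85, 457 to 587 CPM in siNeg and 454 to 519 CPM in siCIN85, with overlap in both comparisons. DSP, which encodes desmoplakin, had 55.9 ± 7.41 CPM in upCIN85 and 31.2 ± 7.50 CPM in Mock (log2FC 0.84, adjusted P = 0.310, and 0.00667 with the siRNA libraries blocked). With DESeq2 its adjusted P was 0.637. The siRNA block leaves Mock and upCIN85 unpaired, and DSP varied widely in siNeg (26.7 ± 17.4 CPM) and siCIN85 (30.5 ± 22.1 CPM).

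Around TGFB1, 1 of 19 tested ligands, receptors and SMADs was called in upCIN85 versus Mock, against 1.23% of all tested genes. At an unadjusted P below 0.05 there were 5, and DESeq2 called 1. SMAD4, the shared partner of receptor-activated SMADs, was lower, with 20.7 ± 6.81 CPM against 60.3 ± 9.77 CPM in Mock (log2FC -1.54, SE 0.30, adjusted P = 0.0187). In this list 16 of 19 values were below 0, with a median of -0.22. In siCIN85 versus siNeg, 0 of the 19 were called (2 at an unadjusted P below 0.05, 0 with DESeq2), and SMAD4 had a log2FC of -0.10. Of 19 tested TGF-β target genes, 2 were called in upCIN85 versus Mock, in opposite directions, against 1.23% of all tested genes. Of the 19, 8 had an unadjusted P below 0.05, and DESeq2 called 3. TGFBI, a TGF-β-induced matrix protein, was lower (72.0 ± 9.53 against 115 ± 17.3 CPM, log2FC -0.68, adjusted P = 0.0459). LMCD1, a LIM domain protein, was higher (9.72 ± 4.45 against 3.14 ± 0.250 CPM, log2FC 1.62, adjusted P = 0.0227). In the knockdown 0 were called (6 at an unadjusted P below 0.05, 3 with DESeq2). CDKN1A, the p21 inhibitor of cyclin-dependent kinases, had the largest difference there (log2FC 1.32, adjusted P = 0.0642, and 0.00223 with the siRNA libraries blocked).

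Around FN1, 16 of 18 fibronectin receptors and adaptors were tested. In siCIN85 versus siNeg 2 were called, against 1.04% of all tested genes (4 at an unadjusted P below 0.05, 3 with DESeq2). In upCIN85 versus Mock 0 were called (5 at an unadjusted P below 0.05, 1 with DESeq2). ITGAV, the integrin αV subunit, was lower in siCIN85, with 124 ± 28.9 CPM against 202 ± 2.15 CPM in siNeg (log2FC -0.71, SE 0.13, adjusted P = 0.0189). PXN, which encodes the focal adhesion adaptor paxillin, was higher, with 167 ± 5.99 CPM against 117 ± 7.16 CPM (log2FC 0.51, SE 0.10, adjusted P = 0.0253). SDC4, a heparan sulfate coreceptor for fibronectin, had 96.3 ± 27.6 CPM in siCIN85 and 172 ± 12.8 CPM in siNeg (log2FC -0.84, adjusted P = 0.0503, and 0.0140 with the siRNA libraries blocked). Around VIM, 9 of 14 intermediate filaments and linkers were tested and 0 were called in either comparison (1 and 3 at an unadjusted P below 0.05, 0 and 1 with DESeq2). Among them, NES, the filament protein nestin, had 6.48 ± 2.54 CPM in siCIN85 and 12.1 ± 4.18 CPM in siNeg (log2FC -0.92, adjusted P = 0.143). With the siRNA libraries blocked, NES had an adjusted P of 0.0477.

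Of 7 tested osteoblast markers, 2 were called in upCIN85 versus Mock, both higher, against 1.23% of all tested genes. Of the 7, 5 had an unadjusted P below 0.05, and DESeq2 called 1. COL1A2, a type I collagen chain, had 145 ± 75.9 CPM against 57.2 ± 24.0 CPM in Mock (log2FC 1.35, adjusted P = 0.0439). ALPL, alkaline phosphatase, had 3.26 ± 0.481 CPM against 0.947 ± 0.102 CPM (log2FC 1.76, adjusted P = 0.0340). The COL1A2 libraries of upCIN85 and Mock overlapped (exact permutation test, P = 0.2), and ALPL had 0 to 23 counts per library. In the knockdown 0 were called (5 at an unadjusted P below 0.05, 1 with DESeq2). There COL1A2 had a log2FC of -1.26 (adjusted P = 0.101), while that of ALPL was again positive, 1.70 (adjusted P = 0.282). The calls of all 8 list genes named as called were lost with at least 3 of the 12 libraries left out singly. SMAD4 lost its call without Mock replicates 2 or 3 or upCIN85 replicate 3, and ITGAV and PXN without siNeg replicates 1 or 2 or siCIN85 replicates 1 or 3. FOXC2 and LMCD1 lost theirs without any 1 Mock library or upCIN85 replicate 1 or 3, and TGFBI without these or siCIN85 replicate 1. COL1A2 lost its call without Mock replicate 2 or 3, upCIN85 replicate 1 or 3, siNeg replicate 2 or siCIN85 replicate 1, and ALPL without any 1 Mock or upCIN85 library or siCIN85 replicate 1. None of the 8 changed sign. With DESeq2, COL1A2 (adjusted P = 0.0682) and ALPL (0.127) did not pass.

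Counts of called list genes also changed with the block. Of all tested genes, the block of the siRNA libraries called 4.35% in upCIN85 versus Mock and 3.42% in siCIN85 versus siNeg. The block in both experiments called 8.25% and 7.72%. With the siRNA libraries blocked, the knockdown calls were 1 among the other mesenchymal transcription factors, 2 each among the TGF-β targets, the intermediate filaments and linkers and the osteoblast markers, and 3 among the fibronectin receptors and adaptors. In upCIN85 versus Mock the same fit called 1 each among the corepressors and turnover factors, the epithelial genes and the intermediate filaments and linkers, and 2 each among the other mesenchymal transcription factors and the TGF-β ligands, receptors and SMADs. It called 3 of the fibronectin receptors and adaptors and 4 each of the TGF-β targets and the osteoblast markers there. With a block in both experiments, the upCIN85 counts were 9 of 19 for the TGF-β targets, 5 of 7 for the osteoblast markers and 4 each for the epithelial genes, the other mesenchymal transcription factors and the fibronectin receptors and adaptors. They were 2 for the TGF-β ligands, receptors and SMADs, and 1 each for the corepressors and turnover factors and the intermediate filaments and linkers. In the knockdown this block called 4 each of the TGF-β targets and the fibronectin receptors and adaptors, and 3 osteoblast markers. It called 2 each of the TGF-β ligands, receptors and SMADs and the intermediate filaments and linkers. It also called 1 each of the other mesenchymal transcription factors and the epithelial genes.

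**Figure D4:**
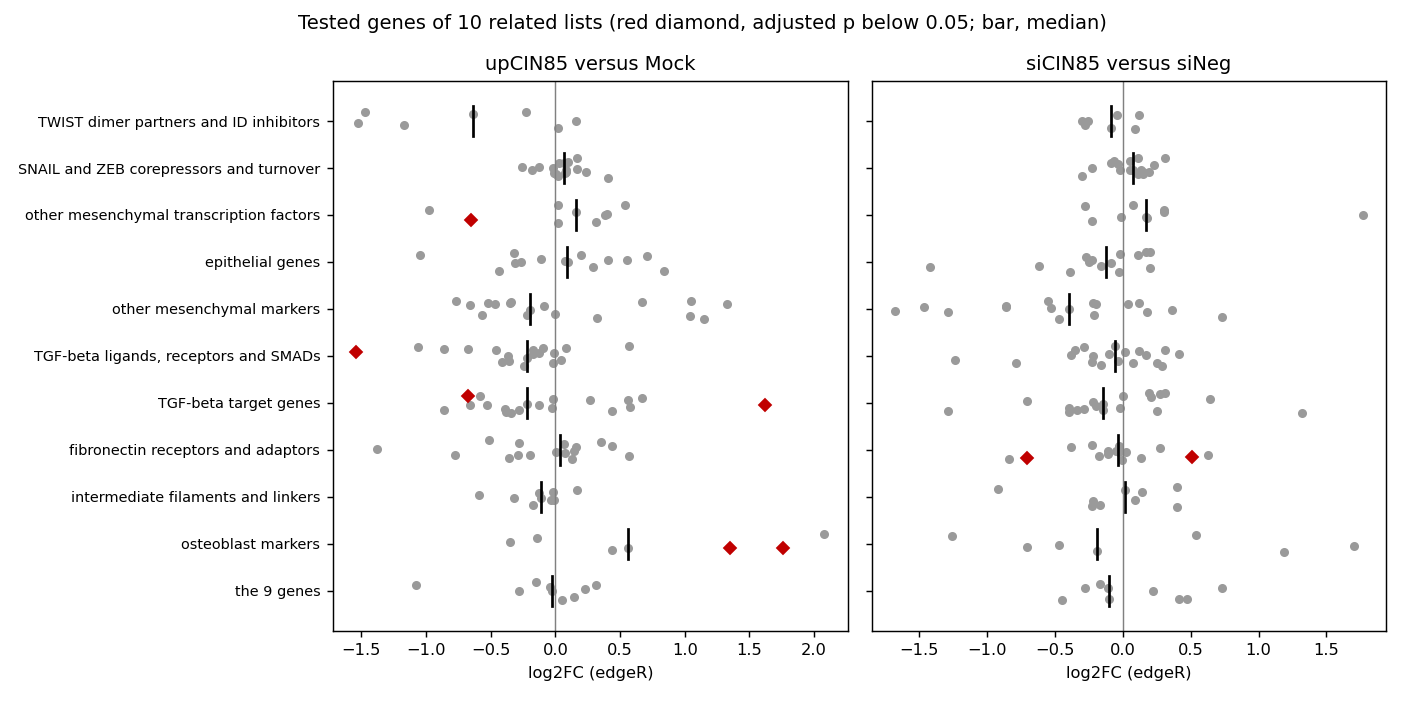
Log2FC from edgeR for each tested gene of 10 related lists and for the 9 genes, in upCIN85 versus Mock and siCIN85 versus siNeg, with a bar at each median, red diamonds for genes with an adjusted P below 0.05, and vertical scatter added only for legibility. The 9 genes centre near 0 (medians -0.023 and -0.10) with no red diamond, and the called genes are 6 in the first panel and 2 in the second. Genes shared between lists are drawn in each of them.

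For the 7 genes of the set with a mean of at least 10 CPM, the genes with the most similar profile over the 12 libraries were listed, as a description, out of 8954 genes of at least 10 CPM. The libraries share groups and depth, and the highest of 8954 correlations is large by selection alone. For FN1 these were MAGED2 (Pearson r = 0.967) and IRAK3 (0.915), and for ZEB1 they included BTBD10 (0.911). For SNAI2 they were PPP4R3B (0.946) and PRKAR2A (0.897), for TWIST1 USP34 (0.897) and SYTL2 (0.885), and for TWIST2 CLIC4 (0.953) and SERTAD4 (0.946). VIM was closest to LRP11 (0.931) and TMEM43 (0.909), and ZEB2 to NDUFAF3 and EMC2 (0.865 each). No member of the set was among these neighbours of another.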

How the data were processed

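Gene-level counts of 12 HOS libraries were used. According to the submitters' processing notes and the study's methods, 3′-end libraries with unique molecular identifiers were read as single-end reads, trimmed (cutadapt 4.3), mapped to GRCh38 (STAR 2.7.3a) and counted per gene by the authors with featureCounts (Subread 2.0). The whole-number counts were deposited without normalization. Whether identifiers were collapsed and which strand setting was used are not given in the sources used here. Genes were matched by Ensembl identifier to GENCODE release 29, in which 95 of 25141 identifiers had no match.

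Counts were tested in R 4.3.3 with edgeR 4.0.16: filterByExpr (minimum count 10, minimum total 15) kept 12542 genes, TMM factors were applied, and a quasi-likelihood model with a mean per group was fitted to all libraries (8 residual degrees of freedom). P-values were two-sided and Benjamini-Hochberg adjusted over all tested genes, with a threshold of 0.05. SE values are approximate, from the size of log2FC over the square root of F. Exact permutation tests used log2 CPM (prior count 2) and, for the paralog ratios, log2 ratios of CPM. The alternatives were RLE factors, 2 other filters, only the 6 libraries of a comparison, replicate blocks, each library left out and DESeq2 1.42.0. Tests were tried on simulated counts, and no duplicated libraries were found.

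Deviations from the group mean were correlated over the tested genes between same-numbered siNeg and siCIN85 libraries. The r was 0.353, 0.269 and 0.446 for replicates 1, 2 and 3. These numbers, taken from the labels, were therefore used as pairs in blocked fits, given beside the main fit. The main fit had no block. For Mock and upCIN85 the values were 0.326, 0.227 and 0.0989, with the last just under the 0.1 required, and the numbers were not treated as pairs. Over the 8954 genes of at least 10 CPM they were 0.39, 0.348 and 0.171, so this decision depends on the genes used, and blocked values are given beside upCIN85 results as well. Where only the siRNA libraries were blocked, Mock and upCIN85 stayed unpaired.

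The 9 genes, the lists, the naming rule and the alternatives were chosen with earlier results of these data known. Named besides the 9 genes were SH3KBP1, list genes called in either comparison, the list gene of at least 10 CPM with the largest absolute log2FC in each comparison, the 2 genes most correlated with each of the 9 that had at least 10 CPM, and genes overlapping them. CDH1, KRT18, COL1A1, SPARC and IBSP were named in addition for their levels, and the log2FC values of CDH1 and KRT18 are given as well. Not every gene the rule names is described, and 1 is not reported here. Promoter sequences are from RefSeq.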

Additional observations from a re-analysis of the deposited data

How the results depend on the processing

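The count of called genes among the 9 was 0 in each comparison and changed as follows. In upCIN85 versus Mock it was 1 (SNAI1) with no filter on low counts (log2FC -1.08, adjusted P = 0.0395, 2.53% of all genes called), with a replicate block in both experiments (-1.10, adjusted P = 0.02, 8.25%) and with 1 block over all libraries (-1.12, adjusted P = 0.0451). In siCIN85 versus siNeg it was 1 (FN1) with no filter (adjusted P = 0.00265, 2.45%) or the block in the knockdown only, and 2 with the block in both experiments. In the difference between comparisons it was 1 (SNAI1) with no filter (adjusted P = 0.00958, 2.2%), the block in both experiments (adjusted P = 0.00992, 7.32%), the block in the knockdown only or 1 block over all libraries (adjusted P = 0.0334). In siNeg versus Mock it was 2 (SNAI2 and FN1) with no filter (1.5%) or the block in both experiments (4.69%). With single libraries left out it lay between 0 and 1 in siCIN85 versus siNeg (ZEB1, without siNeg replicate 3) and was 0 in the other comparisons. For 1 block over all libraries and for single libraries left out, the share of all genes called is not given here. The causes were not tested. The replicate blocks changed no other call of the 9 genes.

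Of 707 log2FC values of the 9 genes under alternatives, 667 kept direction and side of the threshold, 16 passed it in addition and 24 changed sign, none of them called. With libraries left out, the ranges that crossed 0 were -0.13 to 0.025 for ZEB1 and -0.16 to 0.10 for FN1 in upCIN85 versus Mock, -0.35 to 0.07 for TWIST1 in the knockdown, -0.20 to 0.29 for SNAI2 and -0.078 to 0.17 for ZEB2 in the difference, and -0.14 to 0.16 for ZEB1 and -0.039 to 0.082 for ZEB2 in siNeg versus Mock. The ZEB2 difference was -0.0081 with no filter, -0.0072 with at least 10 counts in every library and -0.0024 with DESeq2, and the ZEB2 value in siNeg versus Mock was -0.023 with no filter. Depth limits SNAI1 and TGFB1 most, at 7 to 36 and 26 to 56 counts per library.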
